A study of Homo sapiens with 4 samples.

Results

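The EGFR family genes of colorectal carcinoma cells were examined after exposure to HJJ_3_5, which the series title calls a derivative of piperine, the pungent alkaloid of black pepper. The group was defined by name and held 10 genes, found by symbol among the 20263 genes of the deposited count table: the ligand genes AREG, EREG, TGFA, HBEGF and BTC, the receptor genes EGFR, ERBB2 and ERBB3, ADAM17, which encodes a ligand-releasing protease, and ERRFI1, which encodes an inhibitor of the receptors. All 10 passed the filter on low counts, which kept 14180 genes. Read counts per gene were available from 2 groups of HCT116 cells, an established epithelial line from a human colorectal carcinoma. The first group was grown for 24 h with HJJ_3_5 and the second, labelled DMSO (a solvent) and described in the design as untreated, without it, and each held 2 libraries, numbered 1 and 2. The sources used here do not give its dose. Nothing in the labels tells whether libraries 1 and 2 are separate cultures, so the tests rest on a library-to-library spread that may be technical only. HCT116 is a single line.

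Receptors of the EGFR family sit in the cell membrane and pair up when a ligand binds, which switches on their kinase domains and, through RAS, the ERK pathway. The ligands are made as membrane-bound precursors that have to be cut free by proteases before they reach other cells. In colorectal tumours AREG, which encodes amphiregulin, and EREG, which encodes epiregulin, are the ligand transcripts most often measured, because their level is related to the response to antibodies against EGFR.

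The libraries held 29211120 and 36455176 counts with HJJ_3_5 and 31120459 and 29769568 with DMSO. Values below are CPM (read counts scaled to a common library size) after scaling by trimmed means of M-values (TMM), and fold changes are HJJ_3_5 over DMSO. Means carry ± SD (n = 2) and log2 fold changes carry ± their standard error. Of the colorectal epithelial markers, 6 of 9 had over 1 CPM in every library, while CDX1 had 0 counts in each. VIL1 had 0 to 4 counts and KRT20 0 to 38 counts per library. The summed level of these markers was 4938 to 5849 CPM with HJJ_3_5 and 4338 to 4768 CPM with DMSO, but single markers went both ways. KRT8 had 2750 ± 341 CPM with HJJ_3_5 and 1941 ± 122 with DMSO, and KRT18 923 ± 112 and 521 ± 13. EPCAM had 228 ± 9 CPM with HJJ_3_5 and 277 ± 12 with DMSO, and KRT19 1377 ± 163 and 1714 ± 151. CDX2 had 26.0 ± 3.0 CPM with HJJ_3_5 and 14.6 ± 0.8 with DMSO, and CDH1 88.3 ± 16.1 and 84.5 ± 6.2. In the edgeR test used below, KRT18 and CDX2 were called higher (adjusted p = 0.0293 and 0.0348). KRT8, EPCAM, KRT19, CDH1 and KRT20 did not pass it. The 6 fibroblast markers summed to 35.3 to 40.7 CPM with HJJ_3_5 and 65.2 to 67.2 CPM with DMSO. Nearly all of it was COL1A1, with DCN and LUM at 0 counts. PDGFRB went the other way at a low level, with 0.765 ± 0.106 CPM with HJJ_3_5 and 0.382 ± 0.131 CPM with DMSO. The 6 leukocyte markers summed to 21.0 to 28.7 CPM with HJJ_3_5 and 37.3 to 43.2 CPM with DMSO. Nearly all of it was CD68, with PTPRC at 0 counts. LYZ went the other way at a low level, with 0.955 ± 0.158 CPM with HJJ_3_5 and 0.158 ± 0.032 CPM with DMSO. The 5 endothelial markers summed to 1.91 to 2.63 CPM with HJJ_3_5 and 1.56 to 1.66 CPM with DMSO, and none was over 1 CPM in every library. The part of these marker differences in the results was not tested. Across all genes, log2 fold changes and transcript GC content were related (Spearman's rho 0.346, a description), so each member is also given after removing a GC and length trend from each library, called trend-removed below.

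With HJJ_3_5, AREG, ERRFI1 and EGFR transcripts were called lower and BTC transcripts higher. The EGFR call was lost in the trend-removed fit (log2 fold change -0.00072, adjusted p = 0.996) and with library totals (-0.28, adjusted p = 0.1). In bulk RNA, fewer cells that make a transcript and less of it per cell cannot be told apart. The calls were 3 members lower and 1 higher of 10 at a Benjamini-Hochberg adjusted p below 0.05 (edgeR quasi-likelihood test, adjusted over all genes tested). Of all genes tested, 8.27% were lower and 9.17% higher, 17.4% together. The other 6 members, EREG, TGFA, HBEGF, ERBB2, ERBB3 and ADAM17, did not pass the test. An unadjusted p below 0.05 was found for 7 of the 10, against 39.3% of all genes tested. The libraries of both groups did not overlap for 3 members that were higher and 5 that were lower, against 35.1% of all genes tested for higher, 33.9% for lower and 69% for either direction. The median log2 fold change was -0.15 over the 10 members and 0.0013 over all genes tested. Without HJJ_3_5 1, without DMSO 1 or without DMSO 2 no member was called. Without HJJ_3_5 2 the calls of AREG and ERRFI1 remained, and 3 members were lower and 1 higher, with ADAM17 (-0.64, adjusted p = 0.0469) and ERBB2 (0.63, adjusted p = 0.0384) in place of EGFR and BTC.

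**Figure D1:**
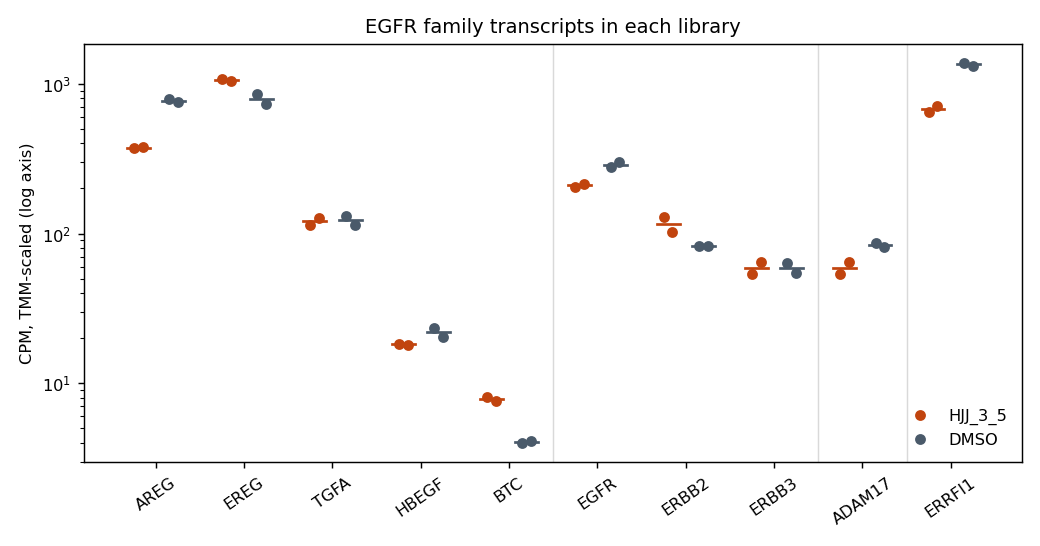
Level of each EGFR family transcript in each library, in CPM after TMM scaling on a log axis, with HJJ_3_5 left of DMSO. Points are libraries and bars are group means (n = 2), and grey lines separate ligands, receptors, the protease ADAM17 and the inhibitor ERRFI1. AREG and ERRFI1 show the widest gaps below DMSO and BTC the widest above it.

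Among the ligands, AREG had the most abundant transcript per length in every library. AREG (ENSG00000109321, GRCh38 chromosome 4, 74445134 to 74455009, plus strand) encodes amphiregulin, which binds EGFR. It had 371 and 379 CPM in the HJJ_3_5 libraries, against 789 and 754 CPM in the DMSO libraries. Both HJJ_3_5 libraries lay below both DMSO libraries, and the gap between the groups was far wider than that within them. The log2 fold change was -1.04 ± 0.09 (adjusted p = 0.0244), a level 2.05-fold lower with HJJ_3_5. It stayed between -1.07 and -1.01 when any library was left out, but its adjusted p was 0.076 without HJJ_3_5 1, 0.0632 without DMSO 1 and 0.0846 without DMSO 2, each of which ended the call. In the trend-removed fit it was -0.86 (adjusted p = 0.0151). Genes within 2 percentage points of its transcript GC content had a median of -0.19.

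EREG (ENSG00000124882, chromosome 4, 74365143 to 74388751, plus strand) is the next of these genes on the same chromosome and encodes epiregulin, which binds EGFR and ERBB4. Its values lay on the other side of DMSO. It had 1075 and 1039.5 CPM in the HJJ_3_5 libraries, against 853 and 736 CPM in the DMSO libraries, with no overlap. The log2 fold change was 0.41 ± 0.11 and did not pass the test (adjusted p = 0.0624). It was 0.60 with library totals as the scale (adjusted p = 0.0304) and 0.64 in the trend-removed fit (adjusted p = 0.064). Genes of like transcript GC had a median of -0.20.

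The ratio of EREG to AREG counts does not depend on the library size, but it carries no correction for GC content or length. It was 2.90 and 2.74 in the HJJ_3_5 libraries, against 1.08 and 0.977 in the DMSO libraries. The mean ratio was 2.74 times as high with HJJ_3_5, and its spread within each group was small (SD 0.110 with HJJ_3_5 and 0.0740 with DMSO). With 2 libraries against 2 the smallest two-sided p of an exact permutation test is 0.333, so the ratio carries no test.

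BTC (ENSG00000174808, chromosome 4, 74744759 to 74794686, minus strand) encodes betacellulin, a ligand of EGFR and ERBB4, and was the scarcest of the 10 transcripts. It had 8.05 and 7.56 CPM in the HJJ_3_5 libraries, from 249 and 296 counts, against 3.97 and 4.13 CPM in the DMSO libraries, from 117 and 114 counts. The groups were well apart. BTC rose by a log2 fold change of 0.95 ± 0.17 (adjusted p = 0.0361), or 1.93-fold. Without HJJ_3_5 1, HJJ_3_5 2, DMSO 1 or DMSO 2 the adjusted p was 0.0974, 0.053, 0.133 or 0.159, and the log2 fold change lay between 0.90 and 0.99. The value was 1.20 in the trend-removed fit (adjusted p = 0.0266).

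TGFA, which encodes transforming growth factor alpha, and HBEGF, which encodes heparin-binding EGF-like growth factor, did not pass the test. TGFA had 114 and 127 CPM with HJJ_3_5, against 131 and 114 CPM with DMSO. Its groups overlapped, and its log2 fold change of -0.02 ± 0.12 (adjusted p = 0.909) turned to 0.16 with library totals and to 0.19 in the trend-removed fit. HBEGF had 18.3 and 18.0 CPM with HJJ_3_5, against 23.3 and 20.5 CPM with DMSO. Both HJJ_3_5 libraries of HBEGF were below both DMSO libraries (log2 fold change -0.27 ± 0.13, adjusted p = 0.204), and the trend-removed value was -0.35 (adjusted p = 0.0871).

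AREG, EREG and BTC lie on 1 stretch of chromosome 4 together with EPGN, which encodes epigen, a further ligand. In the table no other gene falls between EPGN and BTC. EREG and AREG are on the same strand with 56.4 kb between them, and BTC lies 289.8 kb beyond AREG on the other strand. EPGN had 3 and 11 counts with HJJ_3_5 and 4 and 4 counts with DMSO, too few to be tested. Neighbouring ligand genes therefore had values in different directions, with AREG lower and BTC higher.

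**Figure D2:**
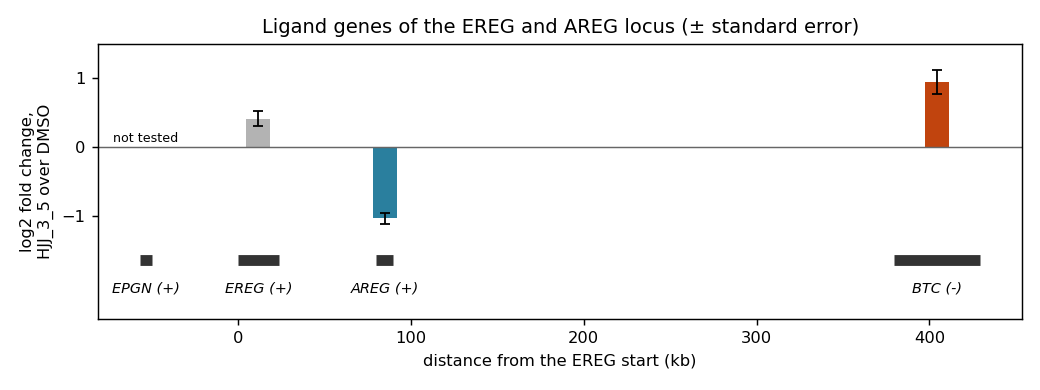
The ligand genes around EREG and AREG on chromosome 4, drawn to scale by distance from the EREG start in kb, with strand in brackets. Bars are log2 fold changes of HJJ_3_5 over DMSO with standard errors (AREG -1.04, EREG 0.41, BTC 0.95), and the grey bar of EREG did not pass the test.

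The promoters of these neighbours are shown because their transcripts had different values in the same libraries. Each is RefSeq's window on GRCh38.p14 of 300 bases, 250 before and 50 after the transcript start, read along the gene's own strand. Capitals mark motifs that were chosen after the values had been seen and searched on both strands: TGACGTCA (the cAMP response element), TGANTCA (AP-1), GGGCGG (the GC box), TATAAA (the TATA box) and GCGTGGGCG (EGR1). A match is a run of letters and not a measured binding site. Windows were given for 9 of the 10 members.
AREG, chr4:74444886-74445185: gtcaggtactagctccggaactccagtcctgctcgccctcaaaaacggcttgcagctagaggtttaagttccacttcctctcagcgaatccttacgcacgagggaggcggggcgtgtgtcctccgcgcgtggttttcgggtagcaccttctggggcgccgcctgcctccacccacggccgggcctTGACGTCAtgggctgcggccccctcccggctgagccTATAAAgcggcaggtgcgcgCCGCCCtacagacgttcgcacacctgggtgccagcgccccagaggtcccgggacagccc
EREG, chr4:74364895-74365194: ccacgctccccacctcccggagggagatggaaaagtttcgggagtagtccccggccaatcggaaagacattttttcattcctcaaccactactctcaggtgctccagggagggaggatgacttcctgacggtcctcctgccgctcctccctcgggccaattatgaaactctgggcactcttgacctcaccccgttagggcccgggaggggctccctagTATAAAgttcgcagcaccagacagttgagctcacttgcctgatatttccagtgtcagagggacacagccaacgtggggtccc
BTC, chr4:74794474-74794773: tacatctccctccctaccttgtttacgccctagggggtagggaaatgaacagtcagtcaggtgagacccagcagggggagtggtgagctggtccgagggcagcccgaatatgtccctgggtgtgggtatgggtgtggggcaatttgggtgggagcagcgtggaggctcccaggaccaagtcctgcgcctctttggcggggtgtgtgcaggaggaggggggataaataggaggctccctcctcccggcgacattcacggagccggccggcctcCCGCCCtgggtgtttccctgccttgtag

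The AREG window holds TGACGTCA with its first base at position -65 from the transcript start, a motif in 1.85% of the 35116 windows of the RefSeq table. It also holds TATAAA at -29 and GGGCGG, on the other strand, at -9. The EREG window holds TATAAA at -32, which 11.5% of all windows have. The BTC window holds GGGCGG on the other strand at 23, as 45.0% of all windows do on either strand. TGANTCA, in 7.71% of all windows, and GCGTGGGCG, in 0.795%, were not among the letters of these windows. The AREG, EREG and BTC windows had a GC content of 66.3%, 57.7% and 63.0%, against a median of 58.7% over all windows.

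Levels of different genes can be compared per length, here as CPM per kilobase of the longest protein-coding transcript. Among ligands, AREG stood at 303 ± 5 CPM per kb with HJJ_3_5 and 622 ± 20 with DMSO, and EREG at 229 ± 6 with HJJ_3_5 and 172 ± 18 with DMSO. TGFA followed at 28.0 ± 2.1 with HJJ_3_5 and 28.4 ± 2.7 with DMSO, and HBEGF at 7.61 ± 0.09 with HJJ_3_5 and 9.18 ± 0.84 with DMSO. BTC was last at 2.77 ± 0.12 with HJJ_3_5 and 1.44 ± 0.04 with DMSO. The ligands together summed to 569 and 571 CPM per kb in the HJJ_3_5 libraries, against 862 and 804 in the DMSO libraries. AREG made up 52.6% and 53.6% of that sum with HJJ_3_5, against 73.8% and 75.6% with DMSO. EREG made up 40.9% and 39.4% with HJJ_3_5, against 21.4% and 19.8% with DMSO. The ligand transcripts thus consisted mainly of AREG and EREG in every library, in more even parts with HJJ_3_5 when taken per length. In counts the 2 genes were more even with DMSO. The ratio of EREG to AREG counts was 1.08 and 0.977 there, against 2.90 and 2.74 with HJJ_3_5. The evenness therefore depends on the transcript length used.

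**Figure D3:**
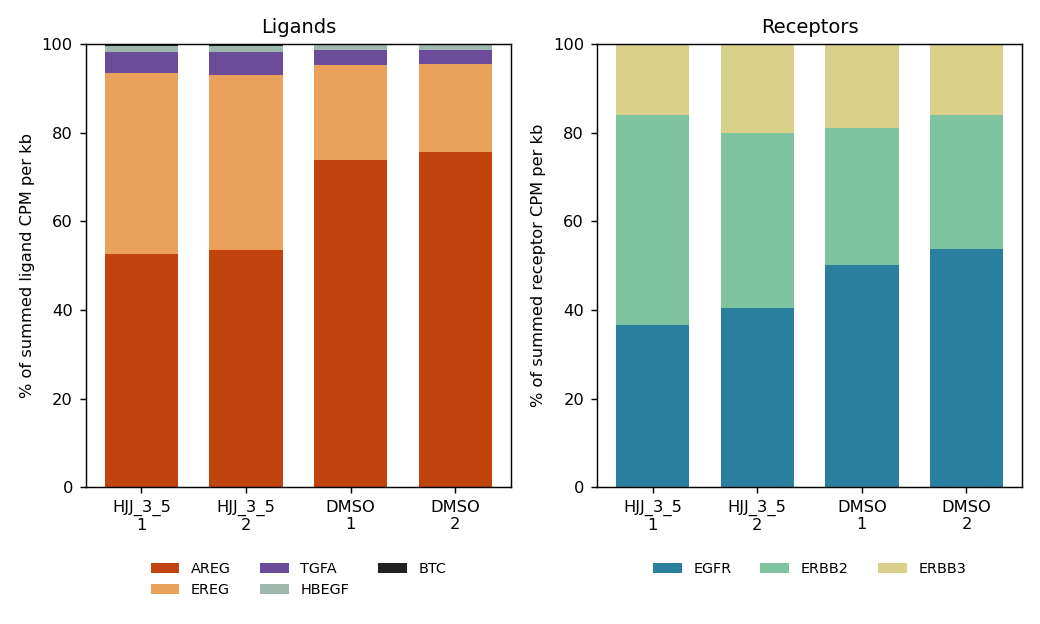
Make-up of the ligand transcripts (left) and of the EGFR, ERBB2 and ERBB3 transcripts (right) in each library, as a percentage of their summed CPM per kb of transcript. AREG takes 52.6% and 53.6% of the ligand sum in the HJJ_3_5 libraries, against 73.8% and 75.6% in the DMSO libraries, and EGFR takes a smaller part of the receptor sum with HJJ_3_5.

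Of the receptors, EGFR (ENSG00000146648, chromosome 7, 55019021 to 55211628) was called lower, but not in the trend-removed fit. It binds all 5 ligands described here. It had 204 and 215 CPM in the HJJ_3_5 libraries, against 277 and 301 CPM in the DMSO libraries, with no overlap. The log2 fold change was -0.46 ± 0.10 (adjusted p = 0.0421), or 1.38-fold lower. This call depended on the scale. With library totals the value was -0.28 (adjusted p = 0.1), and in the trend-removed fit it was -0.00072 (adjusted p = 0.996). The longest EGFR transcript, at 9821 bases, is the longest among the 10 members. Without HJJ_3_5 1, HJJ_3_5 2, DMSO 1 or DMSO 2 the adjusted p was 0.12, 0.056, 0.142 or 0.242, with a log2 fold change between -0.53 and -0.41.

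ERBB2 (ENSG00000141736, chromosome 17, 39687914 to 39730426) encodes HER2, a partner receptor with no known ligand of its own. It had 128 and 103 CPM in the HJJ_3_5 libraries, against 83.2 and 82.6 CPM in the DMSO libraries. The HJJ_3_5 libraries were both above DMSO and differed from each other more than the DMSO libraries did. The log2 fold change of 0.48 ± 0.14 did not pass the test (adjusted p = 0.0765). It passed with library totals (0.67, adjusted p = 0.0333) and without HJJ_3_5 2 (0.63, adjusted p = 0.0384), and without HJJ_3_5 1 it was 0.31 (adjusted p = 0.176). Its trend-removed value was 0.35 (adjusted p = 0.0742). ERBB2 exons share 571 bases with MIEN1 and 194 with PGAP3 on the other strand, so reads of these genes cannot be told apart if counting ignored strand. MIEN1 had 48.8 and 42.9 CPM with HJJ_3_5 against 49.1 and 50.9 CPM with DMSO, and PGAP3 had 16.4 ± 1.6 CPM with HJJ_3_5 and 9.71 ± 0.05 CPM with DMSO.

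ERBB3 encodes a receptor with a weak kinase that binds neuregulins. It had 53.8 and 64.8 CPM with HJJ_3_5, against 63.5 and 54.2 CPM with DMSO. Its groups overlapped almost fully (log2 fold change 0.01 ± 0.15, adjusted p = 0.962), and its sign turned without HJJ_3_5 2 (-0.13) and without DMSO 2 (-0.10). Its trend-removed value was 0.09 (adjusted p = 0.67). Per length, EGFR, ERBB2 and ERBB3 together summed to 56.6 and 54.3 CPM per kb in the HJJ_3_5 libraries, against 56.3 and 57.1 in the DMSO libraries. Within that sum ERBB2 took 47.3% and 39.5% with HJJ_3_5, against 30.8% and 30.2% with DMSO. EGFR took 36.7% and 40.3% with HJJ_3_5, against 50.1% and 53.7% with DMSO. The ratio of ERBB2 to EGFR counts was 0.630 and 0.478 with HJJ_3_5, against 0.300 and 0.274 with DMSO. These groups did not overlap, and the exact test again cannot go below 0.333. Neither the ratio nor the shares correct for GC content and length, and in the trend-removed fit ERBB2 was at 0.35 and EGFR at -0.00072 on the log2 scale.

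ADAM17 encodes the protease, also called TACE, that releases AREG, EREG, TGFA and HBEGF from the cell surface. It had 53.8 and 64.2 CPM with HJJ_3_5, against 86.3 and 81.2 CPM with DMSO, with no overlap. The log2 fold change of -0.50 ± 0.13 did not pass the test (adjusted p = 0.062). It was -0.64 without HJJ_3_5 2 (adjusted p = 0.0469), -0.38 without HJJ_3_5 1 (adjusted p = 0.147), -0.32 with library totals (adjusted p = 0.153) and -0.19 in the trend-removed fit (adjusted p = 0.292). Of its 10750 exon bases, 1323 are shared with IAH1 on the other strand. IAH1 had 21.0 ± 0.6 CPM with HJJ_3_5 and 15.9 ± 0.3 CPM with DMSO. ADAM17 also shares 142 exon bases with AC073195.1 on the other strand. EGFR shares 186 of 12521 exon bases with the antisense gene EGFR-AS1, and ERRFI1 shares 155 of 4186 with an antisense gene. The same uncertainty over strand holds for these. ERBB3 shares 31 of 9039 exon bases with AC034102.2 on the same strand, so strand could not separate reads there. The ligand genes share none.

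ERRFI1 (ENSG00000116285, chromosome 1, 8004404 to 8026308, minus strand) encodes MIG6, a feedback inhibitor that is induced by receptor signalling and binds the kinase domain of EGFR. It fell. It had 652 and 716 CPM in the HJJ_3_5 libraries, against 1378 and 1316 CPM in the DMSO libraries. Both HJJ_3_5 libraries lay well below both DMSO libraries. The log2 fold change was -0.98 ± 0.10 (adjusted p = 0.0273), or 1.97-fold lower. It lay between -1.05 and -0.91 when any library was left out, and the adjusted p was 0.076 without HJJ_3_5 1, 0.067 without DMSO 1 and 0.0894 without DMSO 2. In the trend-removed fit it was -0.75 (adjusted p = 0.019), and genes of like transcript GC had a median of -0.26. The ratio of ERRFI1 to EGFR counts was 3.20 and 3.32 with HJJ_3_5, against 4.97 and 4.37 with DMSO.

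**Figure D4:**
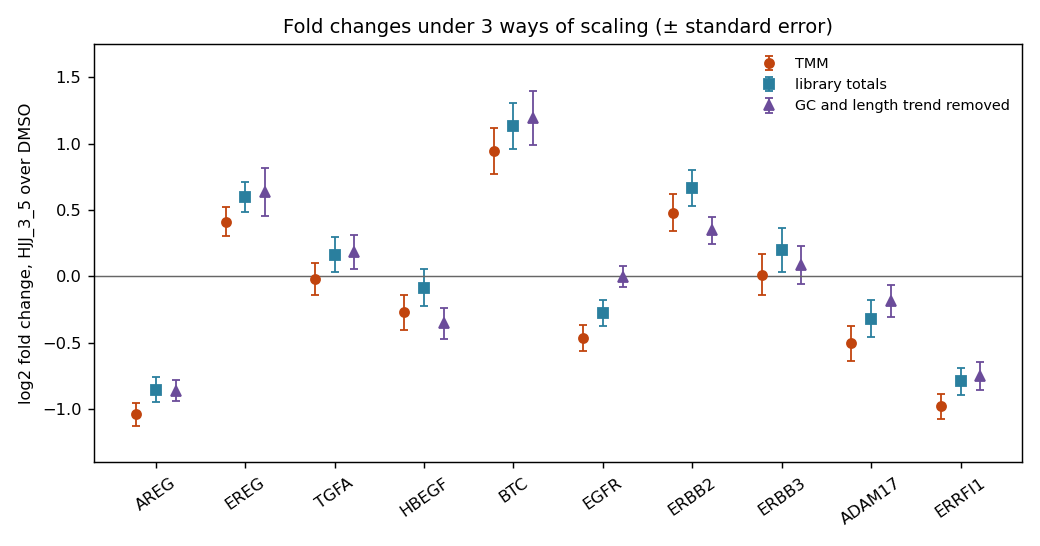
log2 fold change of HJJ_3_5 over DMSO for each member, with standard errors, under TMM scaling, library totals and TMM in the trend-removed fit. AREG and ERRFI1 stay below 0 and BTC above 0 under all 3, while EGFR is at -0.46 with TMM and at -0.00072 with the trend removed.

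Ordered by level per length over all 10 members, AREG stood first with HJJ_3_5, followed by EREG and ERRFI1, whose library values overlapped. In the DMSO libraries the order was AREG, ERRFI1 and EREG, each apart from the next. ERRFI1 averaged 220.3 ± 14.5 CPM per kb with HJJ_3_5 and 434 ± 14 with DMSO. The other members were far lower. With HJJ_3_5 the next were TGFA, ERBB2 and EGFR, each overlapping the next, then ADAM17, ERBB3, HBEGF and BTC, each apart. With DMSO they were EGFR and TGFA, which overlapped, then ADAM17, ERBB2, then ERBB3 and HBEGF, which overlapped, and BTC. Among 14018 genes with a known length, AREG ranked 154th with HJJ_3_5 and 93rd with DMSO, EREG 198th with HJJ_3_5 and 310th with DMSO, and ERRFI1 216th with HJJ_3_5 and 128th with DMSO. AREG had the smallest p of the members. Genes whose pattern over the 4 libraries was most like it were ARMH4 (distance 0.0662) and ATXN1 (0.0673), by Euclidean distance of log2 CPM centred on each gene's mean. Their log2 fold changes were -1.09 and -1.08, and 4 libraries give many genes such a pattern.

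A list of 29 other genes of the ERBB system covered the remaining ligands and receptor, partners of the proteases, adaptors and negative regulators. Of the 27 tested, 3 were higher and 3 lower, or 22.2%, against 17.4% of all genes tested, with a median log2 fold change of -0.16. NRG2, which encodes a neuregulin, rose, with 5.43 and 5.01 CPM with HJJ_3_5 against 2.38 and 2.57 CPM with DMSO (log2 fold change 1.08 ± 0.20, adjusted p = 0.0367). NRG1, another neuregulin gene, fell at a very low level, with 4 and 4 counts with HJJ_3_5 against 16 and 26 counts with DMSO (-2.65 ± 0.53, adjusted p = 0.0407). Its call was lost with no filter on low counts (adjusted p = 0.0531). NRG3 had 0 counts in every library, which allows up to 0.0766 to 0.109 CPM (3 counts, for counting error only). EGF (-0.42 ± 0.42, adjusted p = 0.501) and the receptor gene ERBB4 (-0.01 ± 0.52, adjusted p = 0.991) had low counts, 23 to 61 for EGF and 8 to 22 for ERBB4 per library. EGF averaged 1.15 ± 0.58 CPM with HJJ_3_5 and 1.56 ± 0.10 CPM with DMSO, and ERBB4 0.410 ± 0.215 CPM with HJJ_3_5 and 0.421 ± 0.019 CPM with DMSO.

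Around the proteases, RHBDF2 and FRMD8 rose. RHBDF1, also in this list, lay lower, with 15.7 and 20.1 CPM with HJJ_3_5 against 23.5 and 22.2 CPM with DMSO. It did not pass the test (-0.35 ± 0.17, adjusted p = 0.192). RHBDF2 encodes iRhom2, which brings ADAM17 to the cell surface, and had 68.0 and 69.6 CPM with HJJ_3_5 against 47.3 and 46.0 CPM with DMSO (0.56 ± 0.10, adjusted p = 0.0369). FRMD8 encodes a protein that binds and stabilises iRhoms, and had 31.9 and 28.6 CPM with HJJ_3_5 against 16.7 and 16.0 CPM with DMSO (0.88 ± 0.13, adjusted p = 0.0293). In the trend-removed fit RHBDF2 was at 0.32 (adjusted p = 0.0827) and FRMD8 at 0.66 (adjusted p = 0.0196). ADAM10, which encodes the protease that releases BTC and EGF, had 65.2 and 102 CPM with HJJ_3_5 against 130.2 and 160.3 CPM with DMSO. It did not pass the test (-0.79 ± 0.25, adjusted p = 0.0901), it was -1.16 without HJJ_3_5 2 (adjusted p = 0.0337), -0.50 without HJJ_3_5 1 (adjusted p = 0.154) and -0.15 with the trend removed (adjusted p = 0.343).

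Of the adaptors and negative regulators, SOS1 and CBLB fell. SOS1 encodes the exchange factor that activates RAS below the receptors, and had 22.3 and 30.3 CPM with HJJ_3_5 against 46.2 and 55.6 CPM with DMSO (-0.95 ± 0.20, adjusted p = 0.0445). CBLB encodes a ubiquitin ligase that marks active receptors for degradation, and had 13.4 and 14.4 CPM with HJJ_3_5 against 20.8 and 22.5 CPM with DMSO (-0.64 ± 0.13, adjusted p = 0.0414). Both calls were lost with library totals (adjusted p = 0.0563 for SOS1 and 0.0684 for CBLB). In the trend-removed fit SOS1 was at -0.45 (adjusted p = 0.035) and CBLB at -0.15 (adjusted p = 0.467). The adaptors GRB2 (0.10 ± 0.12, adjusted p = 0.566) and SHC1 (0.08 ± 0.10, adjusted p = 0.569) had values close to 0. None of the 6 calls held without HJJ_3_5 1, DMSO 1 or DMSO 2. Without HJJ_3_5 2 those of FRMD8 and SOS1 held, and those of NRG1, NRG2, RHBDF2 and CBLB did not.

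A second list held 18 genes transcribed downstream of ERK. Of these 1 was higher and 2 lower, or 16.7%, against 17.4% of all genes tested, and the median log2 fold change was 0.10. DUSP4, which encodes a nuclear phosphatase of ERK, rose, with 1031 and 1007 CPM with HJJ_3_5 against 597 and 607 CPM with DMSO (0.76 ± 0.08, adjusted p = 0.0273). SPRY4, which encodes a Sprouty inhibitor of RAS signalling, fell, with 256 and 233 CPM with HJJ_3_5 against 397 and 389 CPM with DMSO (-0.69 ± 0.09, adjusted p = 0.0286). EGR1, an immediate early transcription factor gene, fell too, with 299 and 248 CPM with HJJ_3_5 against 695 and 604 CPM with DMSO (-1.25 ± 0.14, adjusted p = 0.0273). DUSP6, the gene of the cytosolic ERK phosphatase, had 416 and 388 CPM with HJJ_3_5 against 442 and 442 CPM with DMSO and did not pass the test (-0.14 ± 0.09, adjusted p = 0.304). Feedback genes of this list thus had values on both sides of 0. The main fit called 1300 genes higher and 1173 lower over all genes tested. With library totals 4 of the list were higher and 2 lower, against 2614 and 818 over all genes tested. In the trend-removed fit they were 3 and 3, against 1924 and 1648 over all genes tested. The calls of this list did not hold when HJJ_3_5 1, DMSO 1 or DMSO 2 was left out.

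**Figure D5:**
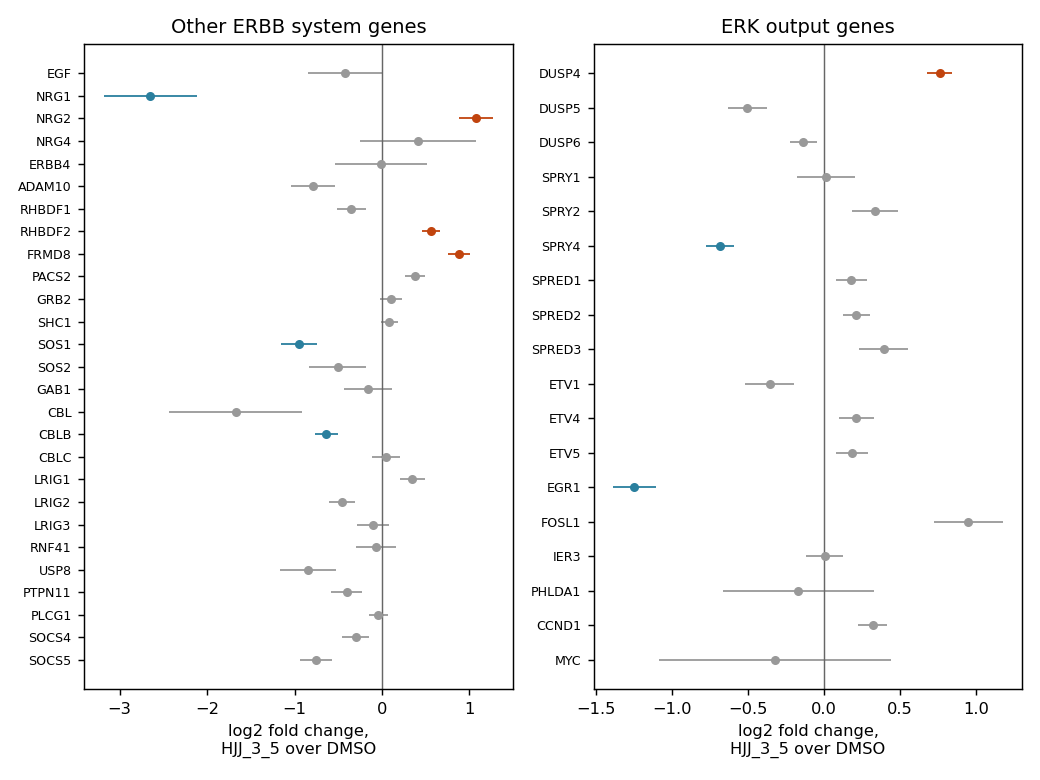
log2 fold change of HJJ_3_5 over DMSO with standard errors for the 27 tested genes of the other ERBB system list (left) and the 18 ERK output genes (right). Red points were called higher, blue points lower and grey points did not pass the test. Called genes stand on both sides of 0 in each panel.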

How the data were processed

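RNA of HCT116 cells had been made into mRNA libraries, per the labels' protocols. The authors deposited raw read counts per gene in 1 table with no normalization. The sources used here name no aligner, counter, annotation or strand setting. GRCm38 and mm10, which are mouse builds, stand in the submitters' processing notes, whereas the rows carry human Ensembl identifiers, so positions here come from GENCODE 29 on GRCh38, matched by identifier. Symbols were matched for 20148 of 20263 rows.

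Genes were kept with filterByExpr (minimum count 10, minimum total 15), scaled by TMM and compared in edgeR 4.0.16 under R 4.3.3 with its quasi-likelihood test. The model held the group alone, leaving 2 residual degrees of freedom, and tests were two-sided, with Benjamini-Hochberg adjustment over all 14180 genes and a threshold of 0.05. A standard error is the log2 fold change divided by the square root of F. Alternatives were relative log expression factors, library totals, 2 other filters, DESeq2 1.42.0, limma-voom 3.58.1, a replicate block, an adjusted p below 0.01, removal of a GC and length trend (natural splines with 4 degrees of freedom per library, fitted where log2 CPM was 3 or more) and leaving out each library.

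The scripts were tested on simulated counts before use. The members, lists and tests were chosen with earlier results of these data known. All 10 members are named. From the lists, called genes and NRG1, EGF, ERBB4 and ADAM10 are named by rule, along with the 3 genes of at least 3 log2 CPM most like the member with the smallest p, of which 1 is not reported here. NRG3, RHBDF1, GRB2, SHC1, DUSP6, MIEN1, PGAP3, IAH1, EPGN, CBL, MYC and PHLDA1 were named after their values were seen. The same holds for the single cell type markers.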

Additional observations from a re-analysis of the deposited data

How the results depend on the processing

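Counts below are genes higher and lower with HJJ_3_5 over all genes, then members, other ERBB genes and ERK output genes. With library totals, which moved fold changes by a median of 0.187, 2614 genes were higher and 818 lower (76.2% higher of those called, against 52.6%), with members 3 and 2, ERBB genes 4 and 1, and ERK genes 4 and 2. DESeq2 gave 1837 and 2152, members 3 and 4, ERBB genes 3 and 6, and ERK genes 2 and 3. Its added calls included EREG (adjusted p = 0.0348), ERBB2 (0.0453), ADAM17 (0.0187) and ADAM10 (0.0204). In the trend-removed fit the counts were 1924 and 1648, with members 1 and 2, ERBB genes 2 and 2, and ERK genes 3 and 3. With no filter the counts over all genes were 1264 and 1276, and 2 ERK genes were higher. At an adjusted p below 0.01 edgeR made 0 calls over all genes, with 5578 genes at an unadjusted p below 0.05. At an adjusted p below 0.05 DESeq2 called 7 members, and edgeR and limma-voom 4 each. Over all genes DESeq2 called 1837 higher and 2152 lower, edgeR 1300 and 1173, and limma-voom 1281 and 1212.

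With the replicate block 2077 genes were higher and 2540 lower, with members 3 and 4, ERBB genes 4 and 6, and ERK genes 3 and 3. The added calls included EREG (adjusted p = 0.0242), ERBB2 (0.0481), ADAM17 (0.0489) and ADAM10 (0.0217). With the trend removed together with the replicate block the counts were 2553 and 2400, members 2 and 2, ERBB genes 3 and 1, and ERK genes 7 and 4. EREG was then called (adjusted p = 0.0119), while ERBB2, ADAM17 and EGFR were not. Deviations of libraries with the same number correlated at 0.336 across 10663 genes, but with 2 numbers the libraries share a number only.

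Leaving out a library gave 0 to 976 genes higher and 0 to 1716 lower, members 0 to 1 and 0 to 3, ERBB genes 0 to 1 and 0 to 7, and ERK genes 0 to 2 and 0 to 2. Without HJJ_3_5 1, 0 genes were called, with 2054 higher and 2249 lower at an unadjusted p below 0.05. A group is then 1 library, assumed to vary like the other group, so a lost call can come from fewer samples. TGFA turned to 0.16 with library totals, 0.19 with the trend removed and 0.19 with the block as well, and lay between -0.12 and 0.076 without a library (0.05 without HJJ_3_5 1). ERBB3 lay between -0.13 and 0.14 without a library. ERBB4 turned to 0.18, 0.66 and 0.63 in those 3 settings and lay between -0.70 and 0.41 without a library. The cause of these turns was not tested. NRG1 and ERBB4 had no value with 10 counts in every library.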

Other observations

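Some genes of the lists differed widely between libraries of the same group. CBL, the ubiquitin ligase gene related to CBLB, had 20.5 and 106 CPM in the HJJ_3_5 libraries, against 201 and 202 CPM in the DMSO libraries (log2 fold change -1.67 ± 0.76, adjusted p = 0.178). Without HJJ_3_5 2 its value was -3.31 (adjusted p = 0.0335), and without HJJ_3_5 1 it was -0.93 (adjusted p = 0.076). MYC had 22.3 and 4.24 CPM in the HJJ_3_5 libraries, against 18.6 and 14.5 CPM in the DMSO libraries. PHLDA1 had 393 and 809 CPM in the HJJ_3_5 libraries, against 432 and 922 CPM in the DMSO libraries. For PHLDA1 library 2 was thus the higher in both groups, and a link to the library number was not tested. These genes were picked out after their values had been seen.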
